A study of Mus musculus with 6 samples.

Results

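The regions described here are autosomal CpG sites of the mouse genome that collected far more bisulfite reads than the rest, outside the 4 windows that hold most of the excess on chromosomes 2, 9, 11 and 17. A site was a member when it had more than 80 reads in the SETD2 knockout, more than 40 in the DNMT3B1 line and more than 45 in the DNMT3A2 line, so the members were chosen by the read counts of these lines and the excess itself is a description, not a finding. The rule found 1736 of the 20782144 sites listed. Sites within 1 kb of each other were joined, which gave 377 clusters. A further 926 sites passed the same limits inside the 4 windows. No repeat annotation was used, so "collapsed repeat" stands for what the coverage shows, many reads placed on a short stretch of the mm9 assembly, and not for a named repeat family.

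Whole-genome bisulfite sequencing was done on mouse embryonic stem (ES) cells, pluripotent cells grown from the early embryo, in which the genes for the DNA methyltransferases DNMT1, DNMT3A and DNMT3B are knocked out. Each line was given 1 enzyme back. The SETD2 knockout line expressed DNMT3B1 and also lacked SETD2, the second line expressed DNMT3B1 with SETD2 intact, and the third expressed DNMT3A2. All 3 lines are thus without DNMT1, and the labels give neither the promoter of the reintroduced enzyme nor the number of clones or cultures. The 6 samples are 2 sequencing runs of each line, pooled in the values, so each line counts as 1 library, no test between lines was possible, and intervals of levels are exact 95% binomial (Clopper-Pearson) intervals. Intervals of ratios of 2 lines use a normal approximation on the log scale. Where no read was methylated, the level that 3 reads would give is printed as the limit. It is not a Clopper-Pearson bound and lies below that bound. All of these cover counting error only.

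DNA methyltransferases add a methyl group to the cytosine of CpG dinucleotides. DNMT3A and DNMT3B place new methylation, DNMT1 copies it to daughter strands, and DNMT3A2 and DNMT3B1 are the isoforms that ES cells mainly use. SETD2 sets the histone mark H3K36me3 along transcribed genes, which the PWWP domains of DNMT3 enzymes can bind. Tandem and dispersed repeats, among them the major satellite beside mouse centromeres, are heavily methylated in most mouse tissues. Because assemblies hold only a few copies of such sequences, reads from many copies pile up where one copy was placed, and a methylation level there is an average over copies that cannot be told apart.

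The median autosomal site had 16 reads in the SETD2 knockout, 8 in the DNMT3B1 line and 9 in the DNMT3A2 line, where the knockout median is over sites with at least 10 reads, the only ones its values list. Member sites had a median of 233, 166 and 174 reads in the same order, with maxima of 900673, 557936 and 646017. They held 1.47% of all reads of the SETD2 knockout, 1.02% of those of the DNMT3B1 line and 1.07% of those of the DNMT3A2 line. Of the autosomal sites outside the windows, 3749, 13895 and 6359 passed the limit of the SETD2 knockout, the DNMT3B1 and the DNMT3A2 line, and the 1736 members are those that passed all 3. The coverage excess of a cluster in a line is its mean reads per site over the line's median. Across the 377 clusters Spearman's rho of this excess was 0.77 for the SETD2 knockout and DNMT3B1, 0.95 for DNMT3B1 and DNMT3A2 and 0.76 for the SETD2 knockout and DNMT3A2. The rule used these same read counts and kept only sites past the limit in every line. These values are thus a description of the members and no evidence that the lines agree. The limits cut through a continuous range. The 128 sites whose lowest line lay up to 10% over its limit had pooled levels of 5.70%, 2.21% and 4.52% in the SETD2 knockout, DNMT3B1 and DNMT3A2 lines, and the 218 sites whose lowest line lay at or up to 10% under it had 4.81%, 2.05% and 5.70%.

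Most clusters were small. There were 184 with 1 site, 68 with 2 and 125 with at least 3, and these 125 held 1416 of the sites. Clusters with at least 2 sites had a median span of 149 bp, and the longest spanned 24036 bp. The median cluster was covered 11.6 times as deeply as the median site, averaged over the lines, and 38 clusters were covered at least 50 times as deeply. All 19 autosomes carried clusters, from 3 on the chromosome with the fewest to 66 on chromosome 8 and 50 on chromosome 4. Merging clusters within 1 Mb left 189 blocks, and 145 clusters were alone in theirs.

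Many member sites lay near the start of a chromosome, a property the rule used only to leave out the 4 windows. Within 500 kb of the first listed CpG of a chromosome, which lies between 3000010 and 3000641 bp since the centromeric end of mouse chromosomes is not assembled, stood 39 clusters on 11 chromosomes. These clusters held 515 member sites, 29.7% of the members, and 1 block of chromosome 11 held 391 of them. Without that block the share was 9.22%, 124 of 1345 member sites, and by cluster it was 10.3%, 39 of 377. The same stretches held 0.263% of the ordinary sites, which are the 7047510 autosomal sites that every line covered with 5 or more reads and that passed none of the 3 limits. In the SETD2 knockout line these sites have at least 10 reads, since its values list no others. Among clusters with at least 100 reads in each line, those near a chromosome start had median levels of 4.67%, 1.38% and 5.52% in the SETD2 knockout, DNMT3B1 and DNMT3A2 lines. The other clusters had 3.57%, 0.955% and 2.78%, so the DNMT3A2 level differed most between the 2 positions.

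Methylation in the members was low in every line, as in the rest of the genome. Pooled over all member sites the level was 5.15% (95% interval 5.13 to 5.18%) in the SETD2 knockout, 1.96% (1.94 to 1.98%) in the DNMT3B1 line and 7.42% (7.39 to 7.46%) in the DNMT3A2 line. Ordinary sites had 5.87%, 2.75% and 7.28%. A single cluster of 9 sites, chr9:35112827-35113168, held 66.0%, 64.8% and 66.9% of the member reads. Without it the pooled levels were 4.28%, 1.83% and 5.68%, below the ordinary level in each line.

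Giving each cluster the same weight lowered the levels further. The median cluster stood at 3.57% in the SETD2 knockout, 0.917% in the DNMT3B1 line and 2.78% in the DNMT3A2 line. The SETD2 knockout line and not the DNMT3A2 line thus had the highest median. Within clusters the order was mixed. Of 215 clusters with enough reads to compare these 2 lines, the knockout was above DNMT3A2 in 116, 54.0%, against 38.0% of 2 kb windows of ordinary sites. The lower and upper quartiles of the clusters were 0.819 and 7.27% in the SETD2 knockout, 0 and 3.13% in the DNMT3B1 line and 0.278 and 6.76% in the DNMT3A2 line. No methylated read was seen at 253, 693 and 500 of the 1736 sites, shares of 14.6%, 39.9% and 28.8%, and the coverage behind these shares was highest in the SETD2 knockout line. Levels of clusters ranked similarly in the lines without being the same. Over the 125 clusters with at least 3 sites, Spearman's rho was 0.81 between the SETD2 knockout and DNMT3B1, 0.67 between DNMT3B1 and DNMT3A2 and 0.78 between the SETD2 knockout and DNMT3A2, as a description over clusters that share libraries and in part sequence.

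CpG density went with large differences between clusters. It was counted as the CpG sites up to 500 bp away in either direction, and compared with that of 2 kb windows of ordinary sites that held 100 or more reads per line. Of the clusters with as many reads, 184 had fewer than 20 CpGs around their sites, and their median levels were 4.73%, 1.50% and 4.41% in the SETD2 knockout, DNMT3B1 and DNMT3A2 lines, against 6.60%, 2.71% and 8.44% in the windows of that density. The 61 clusters with 20 or more CpGs had medians of 0.803%, 0.221% and 0.277%, against 2.97%, 0.847% and 3.05% in the windows. Within the CpG-rich class all 3 lines were below the windows at 20 to 39 CpGs. There the 39 clusters had medians of 1.03%, 0.402% and 0.549%, against 4.64%, 1.72% and 5.73% in the windows. At 40 to 59 CpGs the 16 clusters had 0.621%, 0.205% and 0.118%, against 1.04%, 0.199% and 0.627%. DNMT3B1 was thus level with the windows, and the SETD2 knockout and DNMT3A2 lines were below them. The 6 clusters with 60 or more CpGs had 0.626%, 0.176% and 0.113%, against 0.563%, 0.113% and 0.247%, so there the SETD2 knockout and DNMT3B1 medians were above those of the windows and the DNMT3A2 median below.

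**Figure D1:**
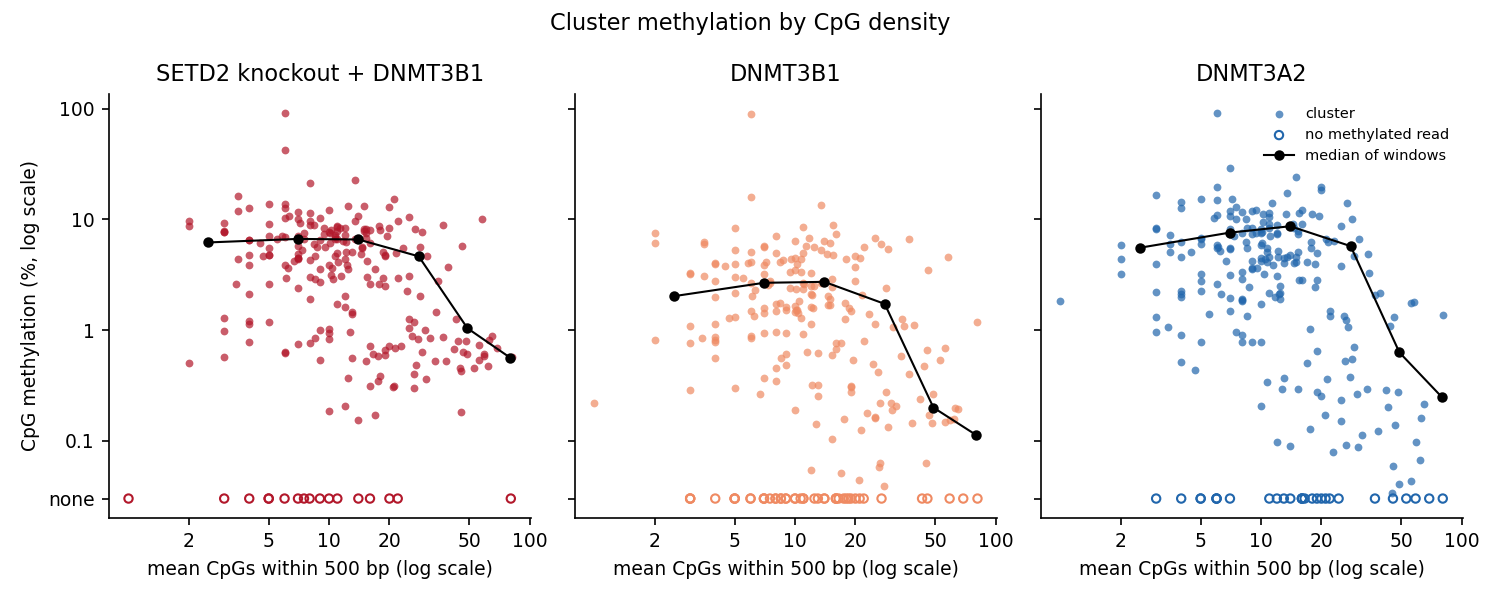
Methylation level of each cluster with at least 100 reads in each line (points, %, log scale) against the mean number of CpGs within 500 bp of its sites (log scale), with 1 panel for each line. Open circles on the bottom line are clusters without a methylated read, and the black line joins the medians of 2 kb windows of ordinary sites, drawn at the middle of each density class. Between 20 and 39 CpGs most clusters lie under the window medians, and from 40 CpGs on they scatter about them in the DNMT3B1 panel. In the SETD2 knockout panel 13 of 16 clusters lie under the median at 40 to 59 CpGs and 2 of 6 at 60 or more. At lower density clusters scatter on both sides of the line with more below it.

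Levels near 0 were more frequent in CpG-rich clusters but not limited to them. Among clusters with 100 reads in each line, 37 of the 61 with 20 or more CpGs were under 1% in the SETD2 knockout line. Of the 184 with fewer CpGs, 42 were. In the DNMT3B1 line these counts were 43 and 78, and in the DNMT3A2 line 38 and 39. The examples given first are CpG-rich. The cluster chr17:36368212-36368531 has 33 sites with a median CpG spacing of 7 bp. Its level was 0.455% (0.354 to 0.577%) in the SETD2 knockout, 0.0625% (0.0230 to 0.136%) in the DNMT3B1 line and 0.0340% (0.00701 to 0.0993%) in the DNMT3A2 line. The ordinary sites within 10 kb of it had 2.71%, 2.88% and 4.16%, so the low level did not extend to its surroundings. At chr16:11144111-11144379, with 32 sites, the levels were 0.476%, 0.159% and 0.0666% over 20374, 17028 and 15022 reads. At chr6:3151480-3151558, with 11 sites covered 117 times as deeply as the median site, they were 0.603%, 0.264% and 0.0404%. In these 3 clusters the order of the lines was the same, with the SETD2 knockout line highest and the DNMT3A2 line lowest, and the intervals of the SETD2 knockout and DNMT3B1 lines did not overlap. Ordinary sites with at least 60 CpGs around them had 0.463%, 0.153% and 0.210% in the 3 lines. The chromosome 6 cluster lay above this level in the SETD2 knockout and DNMT3B1 lines, and all 3 clusters lay below it in the DNMT3A2 line. The chromosome 6 and 17 clusters are less dense, with 48.9 and 44.8 CpGs. Windows of 40 to 59 CpGs had medians of 1.04%, 0.199% and 0.627%. Of the levels of these 2 clusters, only the DNMT3B1 level on chromosome 6 was above those medians. Cytosines left unconverted by bisulfite also count as methylated reads, and their part in levels of this size was not tested.

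There were also clusters without any methylated read. In 18 clusters with 20 sites no methylated read was seen in any line. The deepest of these was chr1:24619576-24619912, with 2 sites and 0 of 1080 reads in the SETD2 knockout, 0 of 1769 in the DNMT3B1 line and 0 of 1442 in the DNMT3A2 line. The limits of 3 reads are 0.278%, 0.170% and 0.208%, and the upper Clopper-Pearson bounds 0.341%, 0.208% and 0.255%. A cluster covered 684 times as deeply as the median site, chr11:107059973-107060783, was also near 0, with 0.205%, 0.0540% and 0.0975% over 6814, 14828 and 16411 reads. Its flanks within 10 kb had 5.74%, 2.29% and 7.35%. This cluster is not CpG-rich, with 12 CpGs around its sites. Nor is chr7:118941043-118941071, with 17 CpGs, where the levels were 0.171%, 0.0506% and 0.504%.

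Flanks gave a measure of each cluster against its own surroundings. A cluster was counted as lower or higher than its flank when its level and that of ordinary sites within 10 kb on each side differed at least 2-fold, with 100 reads in both. In the SETD2 knockout line 130 of 290 clusters were lower and 52 higher, where 20.5% of the 2 kb windows were lower than their own flanks and 12.7% higher. In the DNMT3B1 line 81 of 202 clusters were lower and 37 higher, against 24.0% and 19.3% of windows. In the DNMT3A2 line 105 of 239 clusters were lower and 37 higher, against 21.2% and 13.4%. The shares of clusters below their flank, 44.8%, 40.1% and 43.9% in the SETD2 knockout, DNMT3B1 and DNMT3A2 lines, were thus above those of windows, and the median log2 ratio of cluster over flank was -0.68, -0.50 and -0.64 in the 3 lines. Of 191 clusters with a value in every line, 52 were 2-fold below their flank in all 3 lines, 27.2%, against 6.43% of windows, and 7 were 2-fold above it in all 3, 3.66%, against 2.12%.

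**Figure D2:**
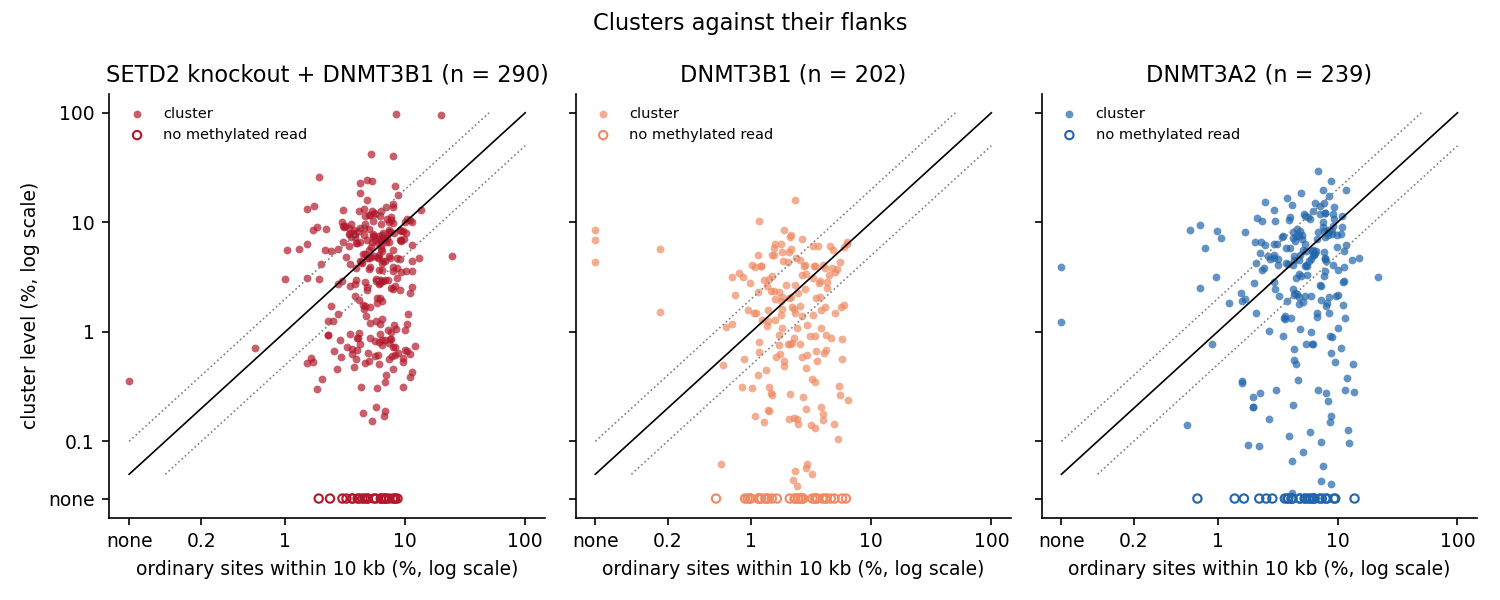
Level of each cluster (%, log scale) against the level of ordinary sites within 10 kb (%, log scale) in the 3 lines. The solid line marks equality and the dotted lines 2-fold differences; open circles are clusters without a methylated read, and points at the left edge have flanks without one. More clusters lie below the lower dotted line than above the upper one, 130 against 52 in the SETD2 knockout line.

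The lines were compared on a relative scale, since they differ in their genome-wide level. The relative log2 ratio is the log2 ratio of 2 lines in a cluster minus the same log2 ratio over all ordinary sites, so 0 means the ratio of the ordinary genome. It was taken where every line had 100 reads. A line without a methylated read was set to 3 reads, and clusters in which both lines had at most 3 methylated reads gave no ratio, an exclusion added after the data were seen. At 2-fold, DNMT3B1 was relatively higher than DNMT3A2 in 62 of 191 clusters, against 18.0% of 230110 windows, and relatively lower in 39, against 24.2%. The median was 0.13. Set against the ratio of the flanking 10 kb in place of that of the ordinary genome, 32 of 133 clusters were higher and 37 lower, with a median of 0.02, so higher clusters then no longer outnumbered lower ones. Requiring also that the counting interval of the ratio leave out 0 kept 46 higher clusters, against 13.1% of windows, and 27 lower ones, against 12.9%. The clusters were read more deeply than the windows, with medians of 562, 409 and 429 reads against 279, 190 and 195. The units differ too, here and in the comparisons of density and flanks above. Windows pool the ordinary sites of 2 kb, while 184 of the 377 clusters are a single site. What this difference adds to the shares and medians of clusters was not tested.

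The CpG-rich clusters held many of those with a relatively higher DNMT3B1 level. Among clusters with 20 or more CpGs, 23 of 44 were 2-fold higher for DNMT3B1, against 19.7% of windows of that density, and 5 were lower, against 22.0%. With fewer CpGs, 39 of 147 were higher, against 17.7%, and 34 lower, against 24.6%. On the plain scale DNMT3B1 left more methylation than DNMT3A2 in 46 of 191 clusters, where 10.9% of windows showed this order. Many CpG-rich clusters hold only a few methylated reads of either line, and 54 more clusters gave no ratio for that reason. Ordinary sites with at least 60 CpGs had 0.153% in the DNMT3B1 line and 0.210% in the DNMT3A2 line, against 2.75% and 7.28% at all ordinary sites. Their relative ratio is thus itself raised, and so is that of a cluster near their level. How much of the excess among CpG-rich clusters this makes up was not tested.

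The 2 lines with DNMT3B1 differ by the SETD2 knockout, and also in library, so the knockout cannot be told apart from differences between the lines in clone, enzyme level or library. The SETD2 knockout line had the higher level in 190 of 205 clusters, where 85.3% of windows showed this. Relative to the ordinary genome it was 2-fold higher in 54 clusters, against 22.5% of windows, and 2-fold lower in 20, against 17.5%, with a median of 0.37. These values changed when the level of ordinary sites with at least 60 CpGs was subtracted from each line, to a median of 0.04 with 31 clusters higher and 43 lower. Against DNMT3A2, the SETD2 knockout line was 2-fold higher in 81 of 215 clusters, against 17.8% of windows, and lower in 22, against 16.4%. The median was 0.39. Subtracting the same level from each line gave 62 clusters higher and 33 lower, with a median of 0.14. Among CpG-rich clusters 35 of 54 were higher and 1 lower, against 26.1% and 13.2% of windows. For the knockout over DNMT3B1 the same group had 17 of 54 higher and 3 lower, against 23.1% and 16.7%. Ordinary sites with at least 60 CpGs had 0.463% in the knockout line and 0.210% in the DNMT3A2 line, against 5.87% and 7.28% at all ordinary sites. A CpG-rich cluster near that level thus has a raised ratio of the knockout over DNMT3A2 too. Requiring also that the counting interval leave out 0 kept 31 higher and 11 lower clusters for the knockout over DNMT3B1, against 11.1% and 12.6% of windows. For the knockout over DNMT3A2 it kept 71 higher and 17 lower clusters, against 13.0% and 13.4%. These 3 comparisons share lines, so their counts are not independent of each other.

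**Figure D3:**
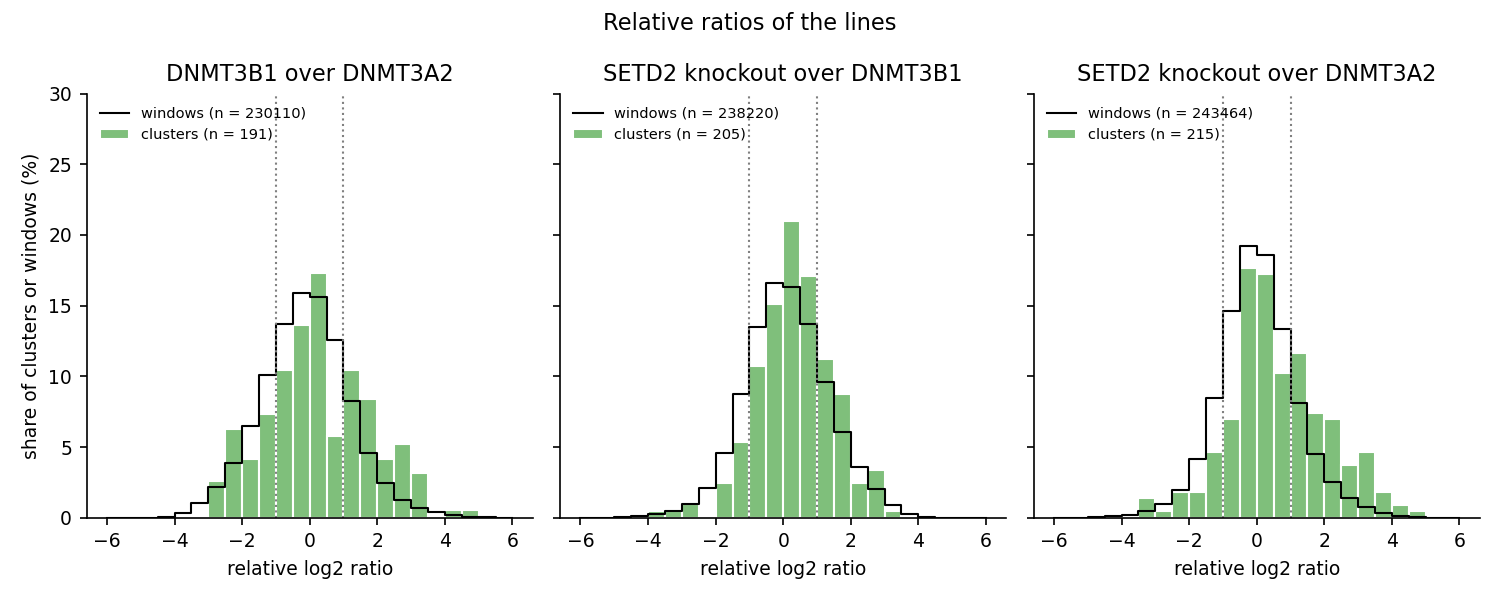
Distribution of the relative log2 ratio in clusters (green bars) and in 2 kb windows of ordinary sites (black line), each as a share in % per bin of 0.5, for the 3 comparisons. Dotted lines mark 2-fold. Clusters exceed the windows at 2-fold and beyond on the right in the DNMT3B1 over DNMT3A2 panel, with 62 of 191 clusters there, and in the SETD2 knockout over DNMT3A2 panel, with 81 of 215.

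The clusters with the highest relative ratio of DNMT3B1 over DNMT3A2 were named by rank among the 110 clusters with at least 3 sites and 300 reads in each line. At chr7:12595801-12596093 the SETD2 knockout line had 7.17% (5.39 to 9.32%), the DNMT3B1 line 3.33% (2.12 to 4.96%) and the DNMT3A2 line 0.337% (0.0696 to 0.983%), a relative log2 ratio of DNMT3B1 over DNMT3A2 of 4.71. All 4 of its sites were higher with DNMT3B1. Only 3 DNMT3A2 reads were methylated there, and the interval of the ratio was wide, 2.98 to 6.44. At chr2:165953808-165953909 the levels were 9.76%, 5.59% and 1.35%, with 5 of 7 sites higher and 1 lower. At chr7:89919985-89920531 they were 8.92%, 6.61% and 2.07%, with 9 of 12 sites higher and 3 lower. In each of these clusters the DNMT3B1 and DNMT3A2 intervals were apart, and DNMT3A2 was below its own level in the flanking 10 kb, which was 1.60%, 11.5% and 8.44% in the 3 clusters.

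A block on chromosome 9 had relatively higher DNMT3B1 levels over several clusters. Its 4 clusters with 46 sites lie at chr9:123371097-123844699. Pooled, they had 4.74% (4.38 to 5.12%) in the SETD2 knockout, 4.20% (3.70 to 4.75%) in the DNMT3B1 line and 2.25% (1.90 to 2.63%) in the DNMT3A2 line, so DNMT3B1 exceeded DNMT3A2 on the plain scale too. The 3 clusters with a ratio were all 2-fold higher for DNMT3B1, and the fourth, which is CpG-rich, had 0.721%, 0.178% and 0.0797%. In the cluster chr9:123833024-123834470, with 14 sites, the levels were 6.36%, 6.78% and 1.99%. This was among the 5 lowest clusters for the SETD2 knockout over DNMT3B1, with a relative log2 ratio of -1.18 (-1.50 to -0.86), and the knockout line did not exceed the DNMT3B1 line there.

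The opposite end held clusters in which the DNMT3B1 line had hardly any methylation while the other 2 lines did. At chr18:3005345-3005842 the level was 4.24% (3.64 to 4.90%) in the SETD2 knockout, 0.264% (0.106 to 0.542%) in the DNMT3B1 line and 4.24% (3.47 to 5.13%) in the DNMT3A2 line. The order was the same at each of its 3 sites for DNMT3B1, which was lowest throughout. The relative log2 ratio was 2.92 for the SETD2 knockout over DNMT3B1 and -2.61 for DNMT3B1 over DNMT3A2. At chr3:8244730-8246472 the levels were 4.77%, 0.299% and 3.19%, and at chr8:19713464-19713564 they were 4.70%, 0% and 5.49%. The DNMT3B1 value there is 0 of 509 reads, with a limit of 3 reads of 0.589%. All 30 methylated knockout reads of this chromosome 8 cluster lay at 1 of its 3 sites, with 0 of 198 and 0 of 135 reads at the others. The methylated DNMT3B1 reads behind these values are few, 7 at the chromosome 18 cluster and 2 at the chromosome 3 cluster, and the wide intervals of their ratios follow from that.

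For the SETD2 knockout over DNMT3A2 the clusters chr7:12595801-12596093, chr6:3151480-3151558 and chr17:36368212-36368531 had the highest relative log2 ratios, 4.72, 4.21 and 4.06. Their intervals were 3.05 to 6.39, 2.78 to 5.64 and 2.39 to 5.72. Only 3, 4 and 3 methylated DNMT3A2 reads stand behind them, so their order among each other is not settled. At chr1:56839073-56839218, with a ratio of 3.55 and 8 sites, the knockout line had 2.24% (1.63 to 2.99%) and the DNMT3B1 line 0.496%. In the DNMT3A2 line 0 of 1267 reads were methylated, with a limit of 3 reads of 0.237%. At the other end, chr15:37132975-37133136 had 2.03% (1.26 to 3.09%) in the SETD2 knockout, 1.60% in the DNMT3B1 line and 7.60% (5.90 to 9.60%) in the DNMT3A2 line, a relative log2 ratio of the knockout over DNMT3A2 of -1.59. All 3 of its sites were lower with DNMT3B1 than with DNMT3A2. The cluster with the highest relative ratio of the SETD2 knockout over DNMT3B1, 3.34, was chr7:137977955-137978075, where only 1 of 2582 DNMT3B1 reads was methylated and the knockout level was 0.833%.

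High levels were rare. The highest cluster of at least 3 sites in the SETD2 knockout and DNMT3B1 lines, chr6:35792197-35792210, had 42.2% (36.9 to 47.7%) in the SETD2 knockout, 15.9% (12.8 to 19.4%) in the DNMT3B1 line and 14.9% (12.4 to 17.6%) in the DNMT3A2 line. Its 3 sites lie within 14 bp, so they share reads, and each had 39.4 to 43.6%, 14.4 to 18.6% and 14.3 to 15.7% in the 3 lines. The highest DNMT3A2 level of a cluster with at least 3 sites was 19.7% (18.6 to 20.9%) at chr8:24205965-24206259, against 8.42% in the SETD2 knockout line and 2.80% in the DNMT3B1 line. That average hid a wide range of sites. The highest had 30.1% in the DNMT3A2 line, where the knockout line had 10.7% and the DNMT3B1 line 3.80%. The sites on either side of it had 16.7% and 6.67% in the DNMT3A2 line, and the other 5 sites 2.54 to 5.0%.

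Single sites went higher still. At 3 lone sites the level was at least 50% in all lines. These are chr7:5492133 with 91.1%, 89.8% and 92.0%, chr17:76395194 with 97.6%, 90.8% and 94.0%, and chr5:3100030 with 95.7%, 96.4% and 98.0% in the SETD2 knockout, DNMT3B1 and DNMT3A2 lines. The counts were 112, 431 and 677 reads at the first of them. Among the ordinary sites 101 of 7047510 were at least 50% in all lines. By contrast a level of 10% was reached at 279, 75 and 312 of the 1736 member sites in the SETD2 knockout, DNMT3B1 and DNMT3A2 lines, shares of 16.1%, 4.32% and 18.0%. Of the 161709 ordinary sites with at least 20 reads in every line, 21.03%, 9.57% and 25.8% reached it.

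The 3 clusters with the highest coverage excess shared a layout of CpGs. They were chr9:35112827-35113168, chr12:3109883-3110118 and chr4:70039156-70039273, with 16194, 1960 and 878 times the median coverage. Sites in the first of them recur at 234 bp, which was also the most frequent distance of 100 to 300 bp between sites past the limits in the windows of chromosomes 2, 9 and 11, where 74 of 373 sites had a CpG exactly that far downstream. The major satellite of the mouse, the tandem repeat beside its centromeres, is known to have a unit of this length. Placed on a unit of 234 bp, all 4 sites of the chromosome 4 cluster and 4 of the 5 of the chromosome 12 cluster fell on positions occupied in the chromosome 9 cluster, while the next best placement matched 2 sites each. Over all members 42 of 1736 sites (2.42%) had a CpG at that distance, beside 1.58% of all autosomal sites. This count needs a second unit beside the first in the assembly, and the chromosome 4 cluster spans only 118 bp. It therefore cannot show how many clusters share the layout. The unit length and the placement were chosen after the distances were seen.

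On that unit the lines showed different patterns. At position 0 the chromosome 9, 12 and 4 clusters differed, with 10.7%, 6.70% and 7.49% in the SETD2 knockout, 4.11%, 2.51% and 2.12% in the DNMT3B1 line and 13.7%, 6.79% and 7.76% in the DNMT3A2 line. At position 18 from the first site, 5 sites of 3 clusters had 6.31 to 9.43% in the SETD2 knockout, 2.48 to 3.93% in the DNMT3B1 line and 10.2 to 14.8% in the DNMT3A2 line. At position 46, 3 sites of 2 clusters had 2.33 to 5.53%, 0.805 to 1.02% and 10.6 to 12.1%. At position 58, 12 bp further, 2 sites of 2 clusters had 6.49 to 6.69%, 1.70 to 2.18% and 3.82 to 4.30%. The DNMT3A2 level was thus high at position 46 and low at position 58, and the DNMT3B1 and SETD2 knockout levels went the other way. As a linear ratio, DNMT3B1 over DNMT3A2 was 0.0668 to 0.0933 at position 46 and 0.396 to 0.572 at position 58. Reads of the same repeat can be placed in any of these clusters, so they are not independent samples of it.

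The windows left out of the members hold sites with the same spacing. Their distances gave the unit length, but their levels were not used in the comparison above. Exactly 1 set of 3 sites past the limits at distances of 28 and 40 bp was found there, on chromosome 2, starting at position 98507073. Its levels at the places of positions 18, 46 and 58 were 7.99%, 2.01% and 4.97% in the SETD2 knockout, 3.24%, 0.759% and 1.75% in the DNMT3B1 line, and 13.9%, 10.7% and 2.71% in the DNMT3A2 line. There too both lines with DNMT3B1 were higher, and the DNMT3A2 line lower, at the last place than at the one 12 bp before it. Reads of the same repeat in the same libraries can be placed here as well, so this set is not an independent sample of the pattern.

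**Figure D4:**
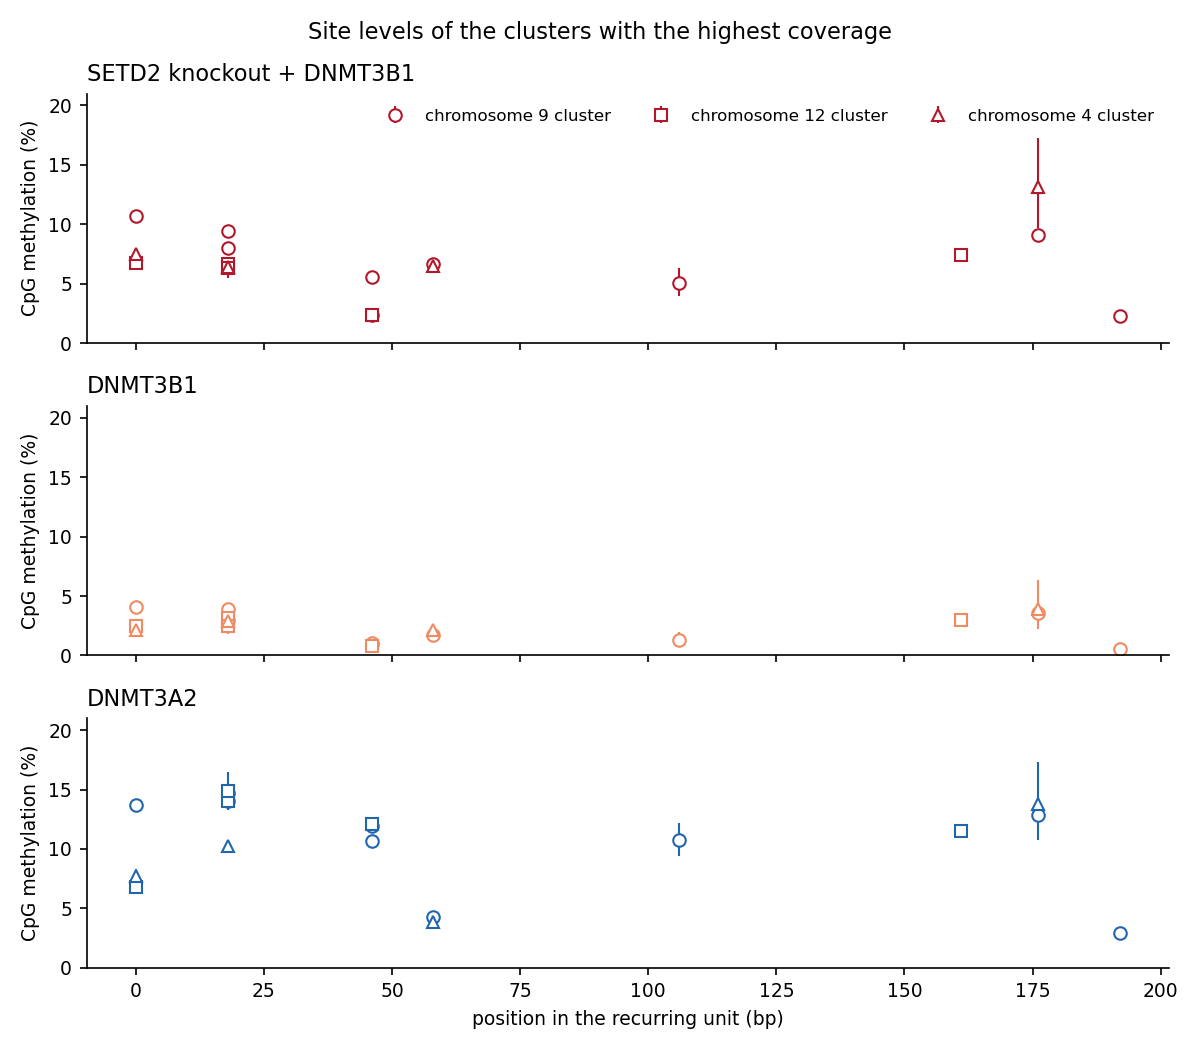
Methylation level (%) of each site of the 3 clusters with the highest coverage, with exact 95% binomial intervals, against its position in a recurring unit of 234 bp, for the 3 lines. At position 46 the DNMT3A2 line has 10.6 to 12.1% and the DNMT3B1 line 0.805 to 1.02%, and at position 58 the DNMT3A2 line has 3.82 to 4.30%.

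Differences between neighbouring sites also occurred in other deep clusters. At chr9:24346526-24346536, covered 339 times as deeply as the median site, 2 sites lie 9 bp apart. The first had 2.67% in the SETD2 knockout, 1.07% in the DNMT3B1 line and 2.59% in the DNMT3A2 line, and the second 17.9%, 10.7% and 2.84%. DNMT3A2 was thus even across the pair, and both lines with DNMT3B1 were many times higher at the second site. At chr6:103599049-103599282, covered 857 times as deeply, 2 sites 9 bp apart had 4.47%, 2.36% and 1.47% at the first and 2.58%, 0.478% and 2.83% at the second, so the order of DNMT3B1 and DNMT3A2 turned between them. Its last site had 20.7%, 8.93% and 0.647%. At chr13:77578186-77578317, covered 427 times as deeply, all 4 sites were highest with DNMT3A2, and the pooled levels were 7.49%, 2.79% and 13.1%. The remaining cluster of the 8 with the highest excess, chr3:56379431-56379624 with 3 sites and 210 times the median coverage, had 2.99%, 0.955% and 2.88%.

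Among blocks of at least 4 clusters, those with the most member sites lay on chromosomes 11, 8 and 4. On chromosome 11 a block next to one of the windows, chr11:3000511-3079806, has 8 clusters with 391 sites, 4 of them among the 8 clusters with the most sites. Its pooled level was 6.88% (6.76 to 7.00%) in the SETD2 knockout, 2.84% (2.75 to 2.93%) in the DNMT3B1 line and 9.23% (9.07 to 9.38%) in the DNMT3A2 line. No cluster of the block was 2-fold higher or lower in any of the 3 comparisons, with 6 clusters in each. In its longest cluster, chr11:3041911-3065946, 149 of 170 sites were lower with DNMT3B1 than with DNMT3A2, as on the plain scale of the ordinary genome.

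The chromosome 8 block, chr8:19684253-20032743, holds 56 clusters with 184 sites over 348 kb. Pooled levels were 5.50% (5.26 to 5.75%), 1.90% (1.73 to 2.09%) and 5.01% (4.74 to 5.29%) in the SETD2 knockout, DNMT3B1 and DNMT3A2 lines. Levels of its clusters with 100 reads ran from 0 to 13.3%, from 0 to 8.85% and from 0 to 18.5%, so neighbours differed by more than their intervals. The clusters chr8:19893897-19894758 and chr8:19898528-19898700 lie less than 5 kb apart. The first had 13.3%, 5.66% and 2.52%, and the second 3.12%, 1.51% and 9.54%, so the order of DNMT3A2 against the other lines turned between them. The CpG-rich cluster of the block, chr8:20019807-20020448 with 34 sites, had 0.819%, 0.198% and 0.159%.

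**Figure D5:**
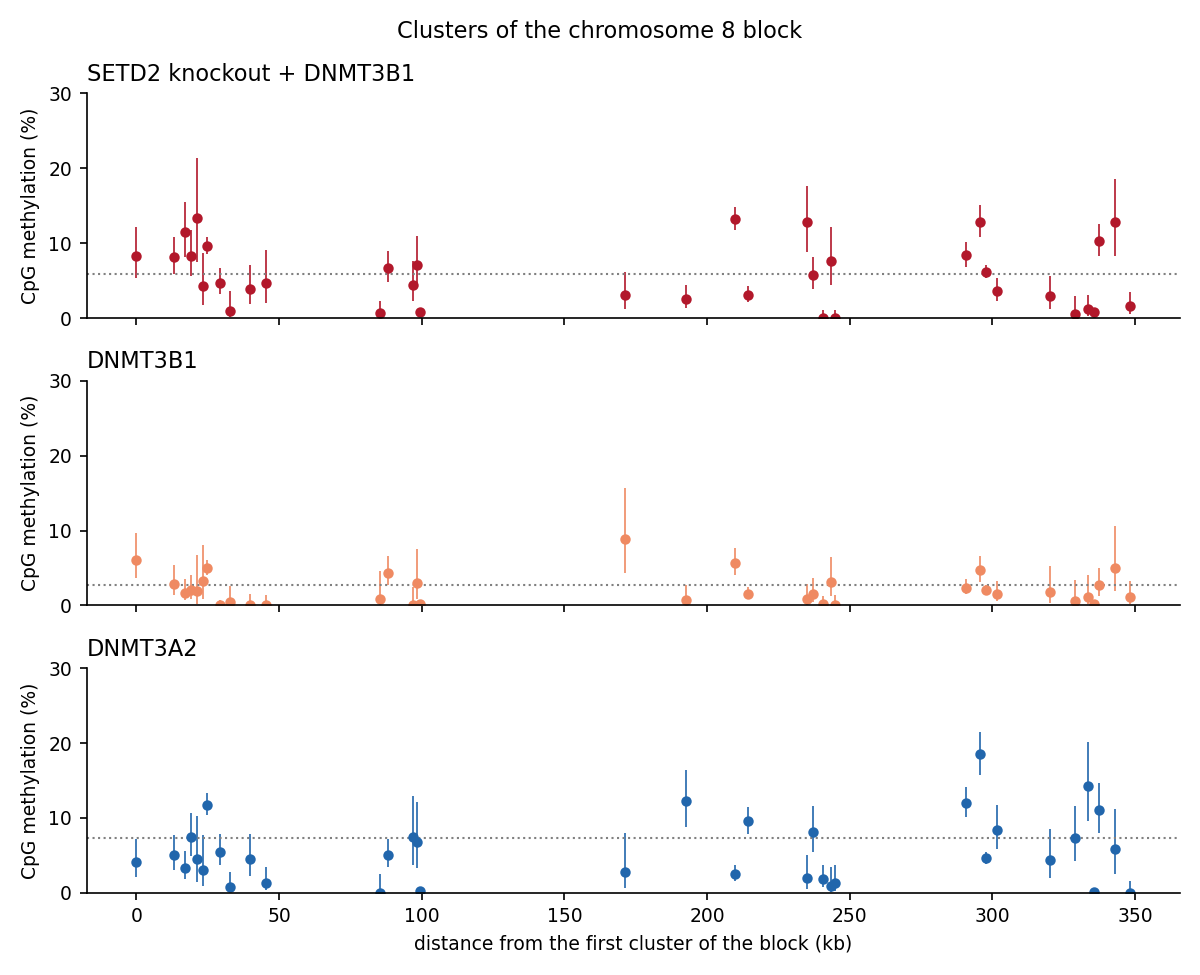
Methylation level (%) of the 36 clusters of the chromosome 8 block with at least 100 reads in each line, with exact 95% binomial intervals, against the distance from the first cluster of the block (kb). The dotted line is the level of ordinary autosomal sites, 5.87% in the SETD2 knockout, 2.75% in the DNMT3B1 line and 7.28% in the DNMT3A2 line. High and near-zero clusters alternate along the block in each line.

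The chromosome 4 block, chr4:144993484-146902080, holds 40 clusters with 80 sites and had 6.16% (5.70 to 6.65%), 2.94% (2.53 to 3.40%) and 6.17% (5.60 to 6.78%) in the SETD2 knockout, DNMT3B1 and DNMT3A2 lines. Here the SETD2 knockout and DNMT3A2 lines were within each other's intervals, and for DNMT3B1 over DNMT3A2 5 of 18 clusters were 2-fold higher and 5 lower. A smaller block at chr11:116604012-116635888, with 7 clusters and 62 sites, had 7.08%, 2.51% and 7.98%. On chromosome 10, a block of 6 clusters with 29 sites at chr10:57686743-57702297 had 4.05%, 1.32% and 4.18%. In 2 of its clusters, chr10:57686743-57688130 and chr10:57694481-57695264, runs of 7 CpGs recur with the same distances. Such a run was found a second time on the autosomes for 8 of the 71 clusters that have one, 11.3%. Of all autosomal runs 6.02% were found more than once. A cluster can hold many runs, so the 2 shares are of unlike units.

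Over all clusters the rank of the excess coverage said little of the level. Over the 377 clusters Spearman's rho between level and coverage excess was -0.10 in the SETD2 knockout, 0.05 in the DNMT3B1 line and 0.01 in the DNMT3A2 line. Over the 125 clusters with at least 3 sites it was -0.19, -0.19 and -0.05. Clusters with an excess under 10 had median levels of 3.72%, 0.855% and 2.82% in the 3 lines. From 10 to 20 the medians were 4.57%, 1.21% and 3.47%, from 20 to 50 they were 1.25%, 0.655% and 1.81%, and from 50 on 2.25%, 0.399% and 2.02%. The median CpG count of these classes was 9, 9, 12.1 and 13.2. The spacing of CpGs went with the level more clearly, with rho of 0.34, 0.21 and 0.31 over the 193 clusters with at least 2 sites, in the direction of higher levels at wider spacing. All of these are descriptions over clusters of the same libraries.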

How the data were processed

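Each of the 3 lines is 1 library of whole-genome bisulfite reads, made of 2 runs. The deposited series table gives, per the file headers, the coverage in reads and the count of methylated reads at each CpG of the DNMT3B1 and DNMT3A2 lines. For the SETD2 knockout line the deposited tables give coverage, methylated counts and the methylated fraction per site and list only sites with at least 10 reads. That fraction equalled methylated over all reads at each of its 9293499 sites, and its 2 deposited files were identical and used once. Coordinates are of mm9, per the submitters' processing notes. Neither the aligner nor the handling of repeated and duplicate reads is given in the sources used here, and both bear on sites with excess coverage, since reads of many copies, or amplified duplicates, may be counted there.

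Levels are methylated reads over all reads, summed over sites. Clusters join sites within 1 kb. Ordinary sites have 5 or more reads and pass no limit, their 2 kb windows with 100 reads in each line give the background, and intervals of levels are exact 95% binomial. Intervals of medians from the ranks served only to compare settings, and clusters are not replicates. The ratio step was tested on simulated data. Clusters are named by rank in site number, coverage excess, level and relative ratio, and others were chosen after their values were seen. The members and lists were chosen with earlier results of these data known. Sites were grouped with no choice of sample, and alternatives were other joining distances, limits, read minimums, scalings and flanks. No genome of this build was used, so no sequence or gene is named. The software was scipy 1.17.1, numpy 2.4.6 and pandas 2.3.3 under Python 3.11.15, with figures from matplotlib 3.10.9.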

Additional observations from a re-analysis of the deposited data

Results flagged for a closer look

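Chromosome X was outside the comparisons, and 45 of its sites in 15 clusters passed the same coverage limits. Their pooled level was 4.459% in the SETD2 knockout, 1.468% in the DNMT3B1 line and 3.647% in the DNMT3A2 line, over 208414, 306759 and 336510 reads. They are listed because methylated reads were present in sites that no comparison used, far above the 3 reads set as the limit for a count of 0. The median X cluster stood at 2.71%, 1.47% and 2.02% in the same lines. Chromosome Y had 0 sites past the limits.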

How the results depend on the processing

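Of 207 values recomputed under other settings, 130 stayed within the interval or within 1.5 times, and 77 moved further. Among median ratios and correlations whose interval left out 0, 0 changed direction. Levels and counts were not checked for direction, and some counts turned. The SETD2 knockout over DNMT3B1 went from 54 higher and 20 lower to 31 and 43 with the CpG-rich level subtracted. DNMT3B1 over DNMT3A2 went from 62 higher and 39 lower to 32 and 37 against the flanking ratio. No paired analysis was possible because the 2 runs of a line are pooled in the values. Reads of repeat copies, 1 library per line and few methylated reads with DNMT3B1 limit every ratio; the cause of the shifts was not tested unless given.

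The pooled level, in the SETD2 knockout, DNMT3B1 and DNMT3A2 lines, was 4.86%, 2.20% and 5.01% as the mean of site fractions and 2.53%, 0.567% and 2.19% as their median. It was 5.18%, 1.90% and 7.63% with limits 10 times as high (211 sites), 5.26%, 2.31% and 5.88% without sites at 500 or more reads, 4.28%, 1.83% and 5.68% without the cluster with the most reads, and 4.69%, 1.81% and 7.21% with the level of CpG-rich ordinary sites subtracted. With limits 2 times as high it was 1.92% for DNMT3B1 and 7.47% for DNMT3A2, and the median DNMT3A2 cluster 2.04%. Medians over clusters with at least 3 sites were 4.39% for the SETD2 knockout and 1.40% for DNMT3B1. The median DNMT3A2 cluster was 3.88% with sites joined within 300 bp. With clusters within 1 Mb merged, a setting chosen after seeing the data, the medians were 2.60% for the SETD2 knockout and 1.93% for DNMT3A2.

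Counts of clusters by relative ratio fell or rose in part with the number of clusters a setting leaves. For DNMT3B1 over DNMT3A2, 37 of 127 were higher with limits 2 times as high, 31 of 116 higher and 22 lower with 300 reads, 32 of 133 higher and 37 lower against the ratio of the flanking 10 kb, 64 of 276 lower with sites joined within 300 bp and 24 of 143 lower with 5 kb. Merged within 1 Mb, 37 of 112 were higher and 17 lower, with a median of 0.34. Keeping clusters in which both lines had at most 3 methylated reads, also chosen after seeing the data, says nothing of the lines, since the limit of 3 reads and the ordinary ratio alone place such clusters on 1 side. It gave 103 of 245 higher and a median of 0.45 here, and 53 lower and a median of 0.10 for the SETD2 knockout over DNMT3B1.

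For the SETD2 knockout over DNMT3B1, subtracting the CpG-rich level gave a median of 0.039, with 31 higher and 43 lower. Lower clusters numbered 13 of 160 with sites joined within 5 kb and 10 of 143 with limits 2 times as high, and with 300 reads 35 of 131 were higher and 7 lower. Merged, 33 of 124 were higher and 6 lower. The rule with a counting interval gave 31 higher and 11 lower.

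For the SETD2 knockout over DNMT3A2, the median was 0.14 with the CpG-rich level subtracted, 0.14 against the flanking ratio and 0.85 when merged, with 9 of 126 lower. With 300 reads 53 of 133 were higher and 7 lower, and 38 of 303 and 11 of 163 were lower with sites joined within 300 bp and 5 kb.

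Against flanks of 2 kb, 33 of 184 clusters were above and 83 below in the SETD2 knockout line, 7 of 95 above and 45 below in the DNMT3B1 line, with a median of -0.93, and 16 of 122 above and 68 below in the DNMT3A2 line, with a median of -1.41. Merged within 1 Mb, 12 of 154 were above and 82 below for the SETD2 knockout, with a median of -1.10, 14 of 119 above and 53 below for DNMT3B1, and 11 of 135 above for DNMT3A2, with a median of -1.48. Over clusters with at least 3 sites, rho of level and CpG spacing was 0.51, 0.42 and 0.51 in the 3 lines, and rho of level and coverage excess for DNMT3B1 was -0.19, where it had been near 0 on the positive side over all clusters.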
